A study of Homo sapiens with 8 samples.

Results

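The 8 genes that encode the subunits of TRiC, the cytosolic chaperonin also called CCT, were followed through selective ribosome profiling of human U-2 OS osteosarcoma cells. They are TCP1, CCT2, CCT3, CCT4, CCT5, CCT6A, CCT7 and CCT8, chosen as the whole set of subunit genes of the complex whatever their values, and they are 8 of the 60664 gene identifiers counted. In this assay ribosome-protected fragments (RPFs), the stretches of mRNA that ribosomes shield from nuclease, are sequenced once from all ribosomes (input) and once from ribosomes recovered through a tagged chaperone on the nascent chain (pulldown). There were 4 groups of 2 biological replicates each. TRiC input and TRiC pulldown came from a line of genotype CCT4-Halo, in which CRISPR–Cas9 placed a HaloTag in a loop of the TRiC subunit CCT4. PFD input and PFD pulldown came from a line of genotype PFDN4-Halo, in which endogenous PFD4, a subunit of the co-chaperone prefoldin (PFD), carried the HaloTag at its C terminus. All 8 libraries came from cells given cycloheximide at 100 µg ml−1 for 1 min and the crosslinker DSP at 2 mM for 30 min. The CCT4–HaloTag line is monoclonal and the PFDN4-Halo line was made by the same strategy of sorting single clones, and no library of untagged cells was analysed here. How many copies of each gene carried the tag is not given in the sources used here. Reads from the tag itself have no place in the human genome and so were not part of any gene's count.

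TRiC is a double-ring chamber that uses ATP to close over a client protein and help it fold, with actin and tubulin as its best known clients. Each ring is built from the 8 different but related subunits in a fixed order, 1 copy of each, so a complete complex holds all 8 in equal number. Prefoldin is a smaller, jellyfish-shaped complex that hands unfolded chains to TRiC. TCP1, which gave the family its name, encodes the alpha subunit, and CCT2, CCT3, CCT4, CCT5, CCT6A, CCT7 and CCT8 encode beta, gamma, delta, epsilon, zeta, eta and theta. The numbers of RPFs on these genes are a readout of how evenly ribosomes are spread over the subunit genes. They also show whether those ribosomes are recovered in the pulldowns. RPFs stand for synthesis only where ribosomes move at equal speed, which was not measured. In the TRiC line a nascent CCT4 chain can carry the tag itself, which gene totals cannot tell from a bound chaperone.

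The genes lie on 7 chromosomes of hg38, with CCT4 and CCT7 both on chromosome 2. TCP1 occupies chr6:159778498-159789703 on the minus strand and CCT4 chr2:61868085-61888671, also on the minus strand. CCT5 lies at chr5:10249929-10266389 on the plus strand. The coding sequences are close in length, from 531 codons in CCT6A to 556 in TCP1, so a difference in RPFs between subunits is hardly a difference in length. The start of the coding sequence, where translation of each subunit begins, is shown for the subunits with the highest (CCT5) and lowest (TCP1) RPF density, for CCT3, whose density stood second in the TRiC inputs, and for the tagged CCT4, with the start codon in capitals (hg38, GENCODE release 44, mRNA strand):
CCT5: tgcaccATGgcgtccatggggaccctcgcc
TCP1: gtcaagATGgaggggcctttgtccgtgttc
CCT3: gtcgccATGatgggccatcgtccagtgctc
CCT4: tttgccATGcccgagaatgtggcaccccgg
All 8 genes carry a purine 3 bases before the start codon, as 86% of 19168 coding transcripts do. A G directly after the start codon as well is found in 5 of the 8 (TCP1, CCT2, CCT5, CCT6A and CCT8), against 43.5% of transcripts. CCT5 and TCP1 share both features and had the highest and lowest RPF density per coding codon in the inputs of both lines. With other lengths these ends of the order changed, as given below. A relation between start context and density was not tested.

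The count of a subunit also depends on how much of its coding sequence can be assigned, because only reads with a single place in the genome were kept. A window of 28 bases, about the length of an RPF, was slid along each coding sequence and looked up in the whole genome. In CCT2 and CCT3 no window had a second exact copy. The share was 2.01% in CCT4, 9.99% in CCT7, 22.2% in CCT5, 28.5% in CCT6A, 32.8% in CCT8 and 40.7% in TCP1. No window was shared between 2 subunits, so reads without a mismatch cannot pass from one subunit gene to another. The copies lie mostly in annotated pseudogenes, and 1 window each is shown, in lower case because all of its bases match, for TCP1 and CCT8, where copies are most frequent, and for CCT4, where they are rare:
TCP1: tcctgcagctaaagttctttgtgagctg
CCT8: actcttgtccttttgatggcatgataac
CCT4: catttgtaagacaattggaaccaagcca
The first recurs in the pseudogene TCP1P1 at chr7:42795111-42795138, plus strand. The second recurs in CCT8P1 at chr1:147204182-147204209, minus strand, and the third in CCT4P1 at chr7:140998505-140998532, minus strand. The 14 annotated pseudogenes of the subunits themselves took few counts, at most 221 in a library (CCT8P1, TRiC input replicate 2). No coding base of a subunit gene lies under another gene on the same strand. Under genes of the opposite strand lie 11.9% of the coding bases of CCT4, 7.70% of CCT5, 5.17% of CCT8 and 3.90% of TCP1, and which strand column was kept is not given in the sources used here.

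Library totals ran from 9523128 to 32637658 counts. The lowest count of a subunit gene in any library was 4213 (TCP1, PFD pulldown replicate 1) and the highest 33051 (CCT5, PFD pulldown replicate 2), so none of these genes rested on few counts. Of 7 markers of bone and mesenchymal cells, 5 had at least 100 counts in every library, and COL1A2 and TWIST1 did not. The summed level of the 7 was 9790 to 10123 CPM (counts relative to library size) in the TRiC inputs and 20504 to 21902 CPM in the PFD inputs. Their summed level thus also differed between the lines, and the part of that difference in the results below was not tested. Haematopoietic markers summed to at most 0.275 CPM, with CD3E and HBB at 0 throughout, and the hepatic marker ALB reached at most 0.178 CPM. The 3 epithelial markers summed to between 0.316 and 18.3 CPM and the 2 neuronal markers to between 11.5 and 24.0 CPM, of which SNAP25 had at least 100 counts in every library. Levels below are CPM scaled with TMM factors over all 8 libraries, which set the bulk of genes equal between libraries. A log2 fold change is therefore a change relative to that bulk. Changes were tested with edgeR's quasi-likelihood test over all genes that passed the filter on low counts, with Benjamini-Hochberg adjusted p-values, and a gene was called at an adjusted p under 0.05. All 8 subunit genes passed that filter in each comparison. Of the bone and mesenchymal markers, 6 were tested between inputs. Called lower in the TRiC inputs were 3, where 17.7% of all genes were, with FN1 lowest at −2.85 (edgeR adjusted p = 2.94e-05). SPARC was the 1 called higher, at 0.47 (adjusted p = 0.00102), where 22.6% of all genes were, so the markers did not shift together.

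The inputs of both lines were compared first, since they show the RPFs of all ribosomes on the subunit genes before any pulldown. All 8 subunit genes were lower in the TRiC inputs than in the PFD inputs, and CCT4, the subunit that carries the tag in the TRiC line, was lower by the widest margin. CCT4 stood at 326 and 340 CPM in the TRiC inputs and at 882 and 871 CPM in the PFD inputs. Both TRiC inputs were thus far below both PFD inputs. The fitted log2 fold change was −1.40 (SE 0.05, 95% interval −1.53 to −1.26, edgeR adjusted p = 0.000121), which is 2.63-fold lower.

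**Figure D1:**
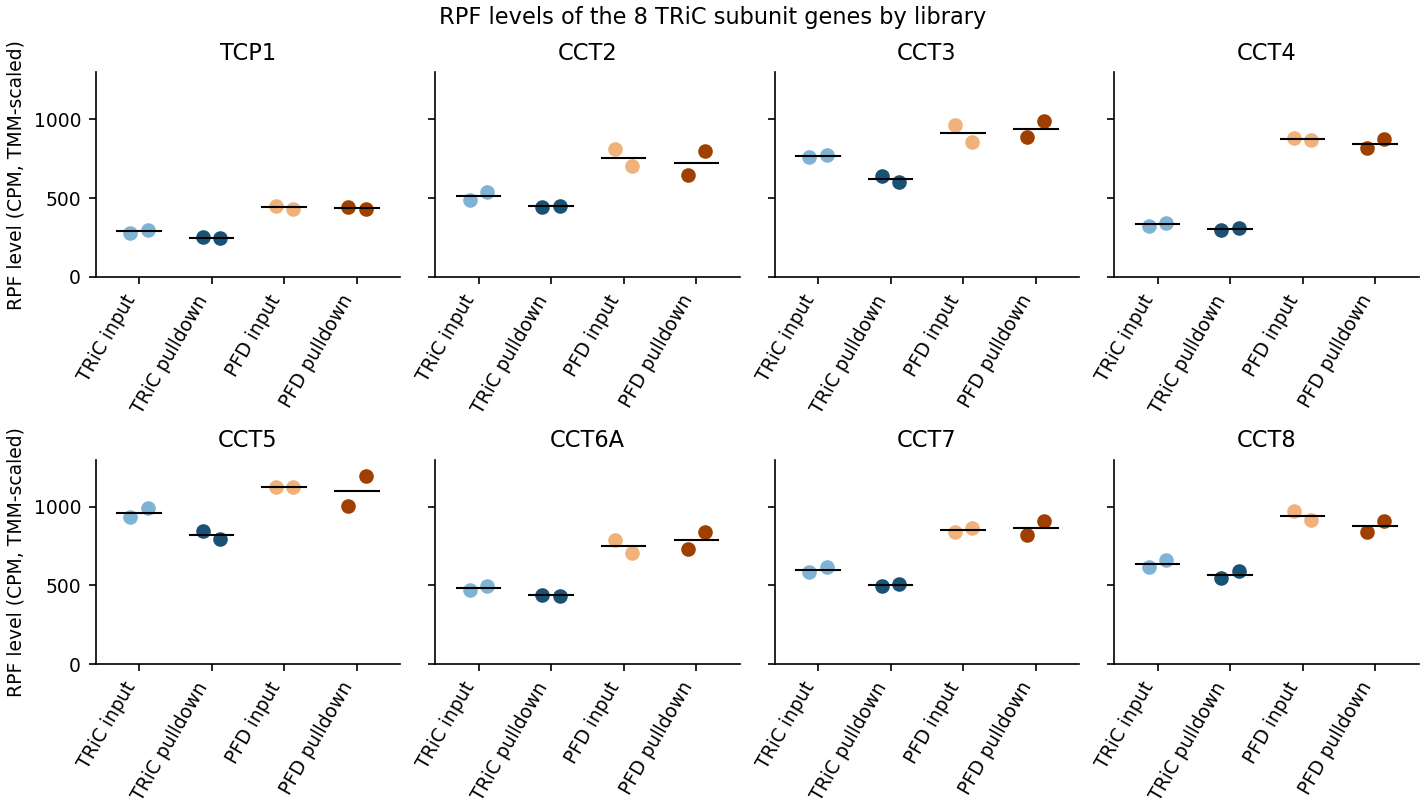
RPF levels (TMM-scaled CPM, linear axis from 0) of the 8 TRiC subunit genes in the 4 groups, with a point for each library and a bar at the mean of 2 replicates. CCT4 in both groups of the TRiC line lies between 300 and 340 CPM, against 819 to 882 CPM in the PFD line, a wider gap than for any other subunit.

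The other 7 subunits differed less. CCT6A was measured at 470 and 499 CPM in the TRiC inputs against 792 and 706 CPM in the PFD inputs, and TCP1 at 278 and 299 against 449 and 433 CPM. CCT5 was measured at 935 and 990 against 1128 and 1127 CPM, and CCT3 at 761 and 776 against 965 and 860 CPM. In each of these genes both TRiC inputs were below both PFD inputs. The log2 fold changes were −0.63 for CCT6A (edgeR adjusted p = 0.00238), −0.61 for TCP1 (adjusted p = 0.00168), −0.25 for CCT3 (adjusted p = 0.0345) and −0.23 for CCT5 (adjusted p = 0.0204). CCT2, CCT7 and CCT8 lay between, at −0.56, −0.51 and −0.56, with edgeR adjusted p-values from 0.00189 to 0.0065.

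All 8 genes were called lower, where 17.7% of the 16341 genes tested were, and in all 8 the groups did not overlap, where this held in the lower direction for 32% of genes. Their median log2 fold change was −0.56, with or without CCT4, beside a median of 0.11 over all genes tested. CCT3 and CCT5 were the weakest calls. With cyclic loess, which removes trends with abundance and moved the median of all genes to −0.03, their log2 fold changes were −0.09 and −0.07 and they were no longer called, and they were also lost without TRiC input replicate 1 (adjusted p = 0.0516 and 0.123), with at least 100 counts in every library (0.0839 and 0.0804) and with all 8 libraries in one fit (0.0824 and 0.121). CCT4 was the only 1 of the 8 called against a null of a 1.5-fold change. The cell line, the clone, the tag and the count table each split these libraries in the same way and cannot be told apart, and fewer RNA molecules per cell cannot be told from fewer ribosomes per RNA in RPFs alone.

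**Figure D2:**
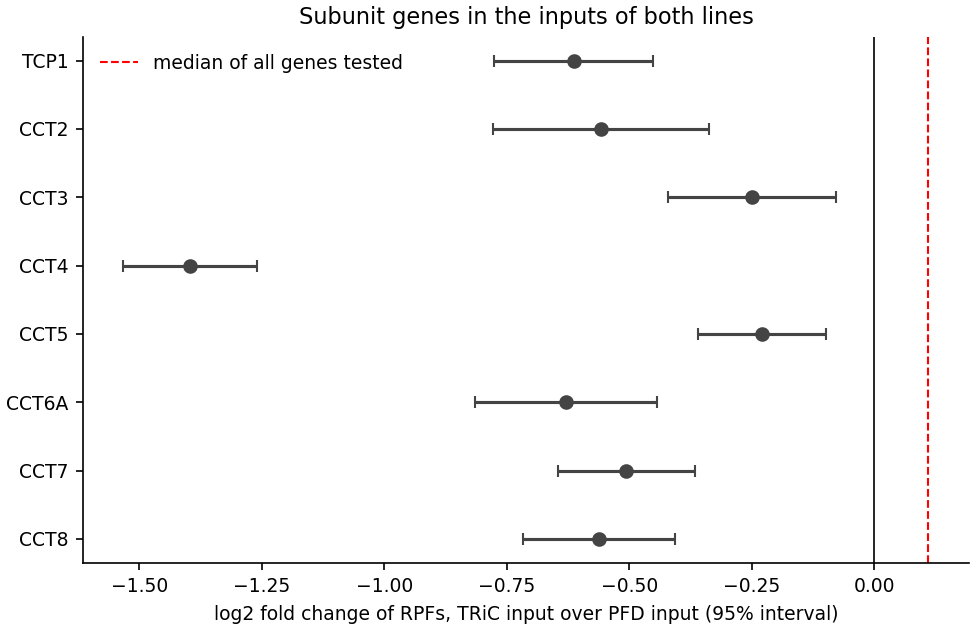
Fitted log2 fold changes of RPFs between the inputs of both lines for the 8 subunit genes, with 95% intervals from edgeR and the median of all genes tested as a dashed line. All intervals lie below 0, and that of CCT4 (−1.53 to −1.26) overlaps none of the others.

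The same comparison was made for other complexes whose subunits assemble in fixed numbers. Of the 14 genes of the 20S proteasome core, the chamber that degrades proteins, 4 were called higher, where 22.6% of all genes were, and 5 lower in the TRiC inputs, with a median log2 fold change of −0.22. Of the 6 genes of the MCM2-7 helicase, which unwinds DNA at replication forks, 2 were higher and 1 lower, with a median of 0.12. Of the 5 TRiC co-factors listed (phosducin-like proteins and related genes) 4 were tested and none was called, at values from −0.36 to 0.23. Of the 6 chaperonin relatives listed 5 were tested, with a median of 0.87, and 1 was called in each direction. HSPD1, the mitochondrial Hsp60, was lower at −0.79 (edgeR adjusted p = 0.000627), and MKKS was higher at 1.35 (adjusted p = 0.0338).

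PFDN4, the gene of the subunit tagged in the other line, moved the opposite way. It was measured at 40.1 and 43.6 CPM in the TRiC inputs and at 11.9 and 9.27 CPM in the PFD inputs, so that both PFD inputs were lower, on 223 and 96 counts. The log2 fold change of TRiC over PFD input was 1.97 (edgeR adjusted p = 0.00115). Among the 6 prefoldin genes 1 was called higher, PFDN4, and 2 lower, of which PFDN2 was the lowest at −1.19 (adjusted p = 0.00115). In each line, therefore, the gene that carries the HaloTag had fewer RPFs than in the other line. Changes of this size were not particular to the tagged genes. Counted from the lowest log2 fold change of TRiC over PFD input, CCT4 ranked 1093 and PFDN4 14218 among the 16341 genes tested.

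To set CCT4 against its own complex, its CPM was divided by the geometric mean of the other 7 subunits in the same library, which cancels the scaling of the library. The log2 of this share was −0.78 in the TRiC inputs and 0.14 in the PFD inputs (means of 2). The difference of −0.92 compares with a pooled SD of 0.04 between replicates, and it corresponds to a share 0.529 times that in the PFD line. Leaving out each library in turn gave −0.96 to −0.88. The shares of CCT5 and CCT3 were higher in the TRiC inputs by 0.41 and 0.39, with both lines' libraries apart. The 5 other subunits shifted by −0.04 to 0.10. Of these, CCT7 (0.10) and CCT8 (0.03) also had both lines' libraries apart, and the rest overlapped. The reference of all these subunits holds CCT4, so its lower level in the TRiC inputs raises their shares there. Shares without CCT4 in the reference were not computed. With 2 libraries against 2 an exact permutation test cannot go below p = 0.333 (two-sided), so no test is given for these shares.

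Across the 8 subunits, the log2 RPF profile of the TRiC inputs correlated with that of the PFD inputs at r = 0.794, and without CCT4 at r = 0.973 over 7 genes. These are descriptions over genes, which are not independent replicates. Counted as a share of the RPFs on all 8 genes, CCT4 took 7.25% ± 0.0751 in the TRiC inputs and 13.2% ± 0.378 in the PFD inputs (SD, n = 2). The share of PFDN4 among the prefoldin genes, computed in the same way without PFDN5, was −0.47 on the log2 scale in the TRiC inputs and −2.78 in the PFD inputs.

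Since a complete TRiC holds equal numbers of the 8 subunits, RPF densities were compared between them. Density is given as CPM per 100 coding codons, and each was divided by the geometric mean of the 8 in its library. In the PFD inputs, where CCT4 is untagged, CCT5 was highest at 1.40 ± 0.0552 and TCP1 lowest at 0.533 ± 0.00757 (SD, n = 2). The 6 subunits between them lay from 0.946 (CCT6A) to 1.15 (CCT8). In that middle group the replicate ranges of CCT8 and CCT3, of CCT3 and CCT4, of CCT4 and CCT7, and of CCT2 and CCT6A overlapped, so their order was not resolved. The highest density was 2.63 ± 0.0662 times the lowest.

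In the TRiC inputs the same ratio was 3.43 ± 0.0432, again from CCT5 (1.80 ± 0.00283) to TCP1 (0.525 ± 0.0058). CCT3 followed CCT5 at 1.43 ± 0.0413, and CCT4 stood next to last at 0.625 ± 0.00752. All neighbours in this order were apart in both replicates, in the sequence CCT5, CCT3, CCT8, CCT7, CCT2, CCT6A, CCT4 and TCP1. The replicate ranges of TCP1 in both lines overlapped, while CCT4 moved from 1.09 ± 0.0335 in the PFD inputs, where it was close to the mean of the complex. That mean includes CCT4, so the lower CCT4 of the TRiC inputs raises the ratios of TCP1 and the other subunits there.

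These ratios depend on how much of each gene can be counted. When windows with a second exact copy were left out of the length, TCP1 rose to 0.732 in the PFD and 0.721 in the TRiC inputs, and CCT8 rose to 1.40 and 1.43. The span from highest to lowest then narrowed to 2.01 in the PFD inputs and was 3.63 in the TRiC inputs, where CCT4 at 0.520 became the lowest subunit. CCT5 was highest in both lines with either of these lengths, but not with the merged exons of each gene as the length. Then CCT3 was highest in the TRiC inputs and CCT4, at 1.58, in the PFD inputs, where CCT5 was the fifth at 0.972. The spans were 3.37 in the TRiC and 3.59 in the PFD inputs, with TCP1 lowest in both. In CCT5 the merged exons hold 5638 bases against 1623 coding bases. With coding bases under other genes left out of the length, CCT5 was again highest, at 1.88 in the TRiC and 1.46 in the PFD inputs. The first place of CCT5 was therefore lost only with merged exons, while the place of CCT4 also changed among the lengths from coding sequence.

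**Figure D3:**
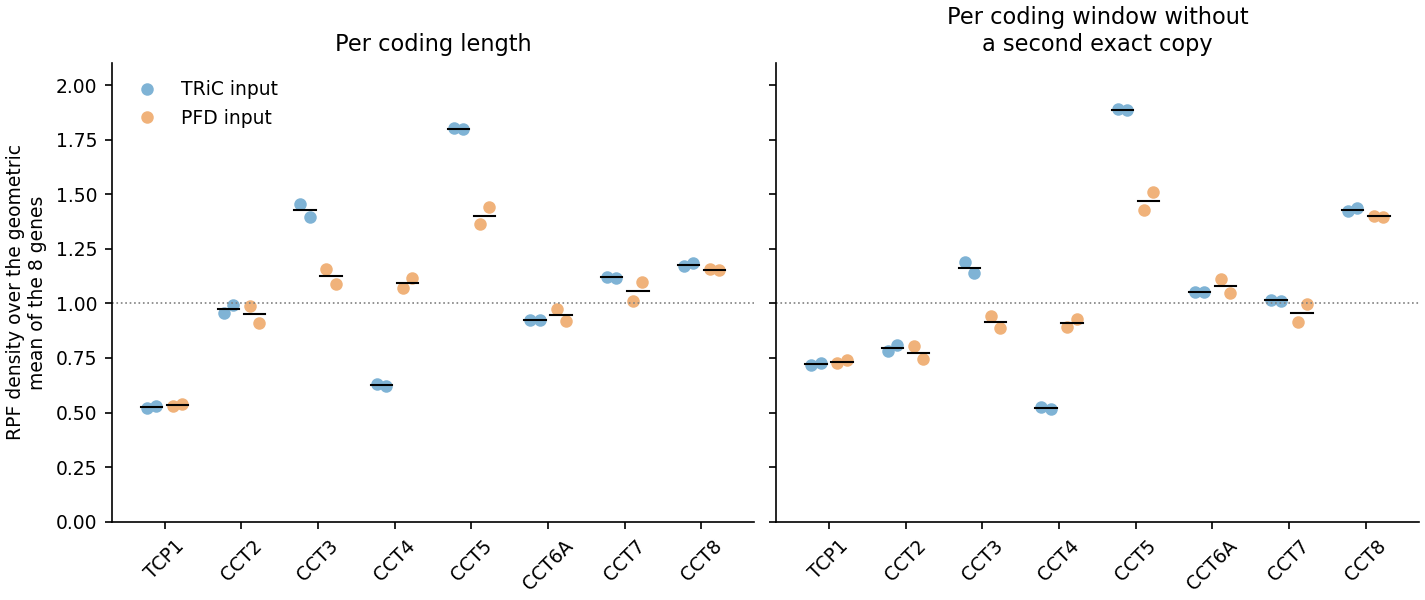
RPF density of each subunit gene over the geometric mean of the 8 genes (linear axis) in the inputs of both lines, per coding length on the left and per window without a second exact copy on the right, with points for libraries and bars for means. CCT4 lies at 0.625 in the TRiC and 1.09 in the PFD inputs on the left, while TCP1 is near 0.53 in both and moves up on the right.

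Spans were also computed for the other complexes. For the 11 proteasome core genes whose coding sequence is not mostly under another gene on the same strand, the highest density was 3.06 times the lowest in the TRiC inputs and 2.7 times in the PFD inputs. For the 6 MCM genes the values were 3.05 and 2.91. For prefoldin without PFDN5 they were 1.5 in the TRiC inputs and 10.7 in the PFD inputs, where PFDN4 was the lowest. PFDN5, PSMA1, PSMA2 and PSMA6, of which at least 80% lies under same-strand genes, had densities far below those of their partners and were left out of these spans.

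Each pulldown was then compared with the input of its own line, which asks whether ribosomes making a TRiC subunit were recovered more often than other ribosomes. Gene totals hold no positions, so recovery over a short stretch of a coding sequence can go unseen in them. The paper scored enrichment at each position along the coding sequence. It reports TRiC subunits as enriched among the substrates shared by TRiC and PFD, a measure unlike the gene totals used here. No subunit gene was called higher in the TRiC pulldown, where 8.64% of genes were. CCT3 was measured at 638 and 601 CPM in the TRiC pulldown against 761 and 776 CPM in the input, a log2 fold change of −0.31 (95% interval −0.45 to −0.17, edgeR adjusted p = 0.00305). CCT7 (−0.25, adjusted p = 0.0138) and CCT5 (−0.23, adjusted p = 0.019) were called lower as well.

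The remaining 5 subunits were not called, with TCP1 and CCT2 closest to the threshold (edgeR adjusted p = 0.053 and 0.0551). CCT4, the subunit that carries the tag here, was nearest to 0. It was measured at 300.3 and 309 CPM in the pulldown against 326 and 340 CPM in the input, a log2 fold change of −0.13 with a 95% interval of −0.27 to 0.02. A nascent CCT4 chain can carry the tag itself, and the part of that in this value was not tested. In all 8 genes both pulldowns were below both inputs, where this held for 31.2% of genes, and 3 of 8 were called lower, where 10.6% of the 17934 genes tested were. The median of the 8 was −0.20, beside 0.00 over all genes.

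The number of calls depended on the setting. With the replicate number as a block, which compares each pulldown with the input of the same number, 7 of the 8 were called lower, all but CCT4. With all 8 libraries in one fit none of the 8 was called, with cyclic loess none was and their median was −0.06, with library totals in place of TMM only CCT3 was, and with at least 100 counts in every library CCT3 and CCT7 were. Without either TRiC input replicate CCT3 alone was called (1 gene), and without either pulldown replicate 5 were. The other complexes also tended lower, as 10 of 14 proteasome core genes, 4 of 6 MCM genes and 3 of 6 prefoldin genes were called lower in the TRiC pulldown and none higher.

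**Figure D4:**
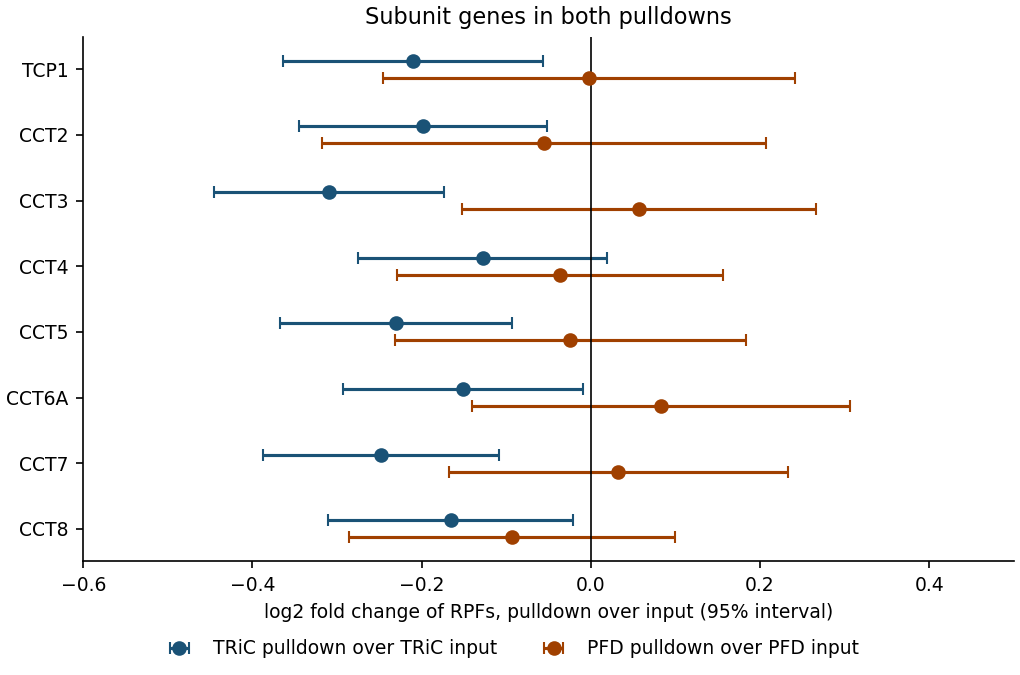
Log2 fold changes of RPFs in pulldown over input for the 8 subunit genes in both lines, with 95% intervals from edgeR. The TRiC values lie between −0.31 and −0.13 and the PFD values between −0.09 and 0.08, with intervals of all 8 PFD values spanning 0.

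In the PFD pulldown the subunits stayed close to the input. Values ran from −0.09 for CCT8 (95% interval −0.29 to 0.10) to 0.08 for CCT6A (−0.14 to 0.31). None was called by edgeR, where 0.241% of the 14111 genes tested were, none had an unadjusted p under 0.05, and DESeq2 called none. CCT8 was the only 1 whose groups were apart, at 842 and 907 CPM in the pulldown against 970 and 913 CPM in the input, and 20.3% of genes were apart in that direction. The PFD libraries were more variable, with a common dispersion of 0.331 against 0.0153 for the TRiC libraries. The widest interval was that of CCT2, from −0.32 to 0.21, and the narrowest that of CCT4, from −0.23 to 0.16.

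The difference between both pulldown changes was tested as an interaction over all 8 libraries. It was below 0 for all 8 subunits, from −0.35 for CCT3 (edgeR adjusted p = 0.273) to −0.06 for CCT8 (adjusted p = 0.893), and none was called, where 0.0371% of 18855 genes were. An unadjusted p under 0.05 was reached by 2, CCT3 (0.0222) and CCT7 (0.041), and DESeq2 called the same 2 genes. The changes of the subunits in the TRiC and PFD pulldowns were therefore not shown to differ by edgeR.

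Within the complex, the TRiC pulldown shifted the shares of the subunits only slightly. The log2 share of CCT4 was higher by 0.09 in the pulldown (pooled SD 0.03), that of CCT6A higher by 0.06, and those of CCT3 and CCT7 lower by 0.12 and 0.05, each with pulldown and input libraries apart. The other 4 overlapped. In the PFD pulldown CCT6A and CCT3 were higher by 0.10 and 0.07 and CCT8 was lower by 0.10, and CCT4 overlapped. With 2 libraries against 2, an exact permutation test gives p = 0.333 (two-sided) whenever groups are apart. Being apart does not by itself show a shift here.

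Some loci also hold small RNAs. SNORA15, a small nucleolar RNA in an intron of CCT6A (chr7:56060470-56060602), had 11 and 15 counts in the TRiC inputs and 460 and 381 in the TRiC pulldowns, and at most 11 in a PFD library. SNORA20 within TCP1 had 29 and 18 counts in the TRiC inputs and 126 and 124 in the pulldowns. Both TRiC pulldowns were above both inputs for each of these RNAs, while their host genes CCT6A and TCP1 were not called. The part of these small RNAs in the values of the host genes was not tested.

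Over the 8 libraries the genes whose log2 CPM ran most like the mean of the 8 subunits were CNBP, RPS13, YTHDF3, TNFAIP1 and MYC, with Pearson correlations of 0.996 to 0.997, among 4272 genes with a mean of at least 50 CPM. The libraries fall into the 2 lines, which share that split in every such gene, so these correlations describe mainly the difference between lines.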

How the data were processed

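Per the labels and the methods, the authors removed PCR duplicates with UMI-tools, discarded reads matching non-coding RNA with Bowtie2 2.4.2, and aligned what remained to hg38 by STAR 2.7.10a, where multiply aligned reads and reads with over 2 mismatches were dropped. Raw counts per gene were deposited, in a table for each line. The annotation release, the strand column and which of 2 sequencers ran each library are not given in the sources used here. Of 60664 identifiers, 60463 matched GENCODE release 44.

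From the counts, edgeR 4.0.16 in R 4.3.3 (TMM, filterByExpr, glmQLFit, glmQLFTest, Benjamini-Hochberg over all genes tested) was fitted to the 4 libraries of each comparison and to all 8 for the interaction. Alternatives were DESeq2 1.42.0, limma 3.58.1 after cyclic loess, other scalings and filters, glmTreat, a replicate block and leaving out each library. Fits were tested on simulated data with 200 changed genes. The named genes were the 8 subunits, genes sharing their loci, the ends of each list, PFDN4 and the 5 genes most like the subunits. The members and lists were chosen with earlier results of these data known. Intervals rest on 2 replicates a group.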

Additional observations from a re-analysis of the deposited data

How the results depend on the processing

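In the TRiC inputs the lower level of CCT4 kept direction and call under every alternative run, and the higher level of PFDN4 did in all but the filter of 100 counts, which left PFDN4 out. The log2 fold change lay between −1.42 and −1.34 for CCT4 when 1 library was left out. Of the 8 calls between inputs, 1 was left with glmTreat against a 1.5-fold change, and 6 to 8 when a library was left out. In the TRiC pulldown, 3 calls became 1 with library totals, 0 with cyclic loess, 0 with all 8 libraries in one fit, 0 with glmTreat, 7 with the replicate block, and 1 to 5 when a library was left out. DESeq2 called 2 interactions, against 0. The causes were not tested.

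The methods take input and pulldown from ribosome pellets but do not state that equal numbers share a pellet. Deviations of same-numbered libraries correlated at 0.245 in the TRiC line, −0.0945 in the PFD line and −0.0464 between inputs, over 8085 genes. The replicate block changed the call of no subunit in the other comparisons.

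In the PFD pulldown, uncalled log2 changes near 0 turned sign for CCT7 with library totals (−0.00089) and loess (−0.011), and for TCP1 with upper quartile (0.0086) and DESeq2 (0.0055). Leaving out a library turned those of CCT2, CCT7, CCT3, CCT5 and TCP1, with ranges of −0.181 to 0.052, −0.013 to 0.060, −0.021 to 0.116, −0.117 to 0.056 and −0.070 to 0.056. The interaction turned for CCT8 with library totals (0.0084), loess (0.11) and at least 100 counts in every library (0.0033), and for CCT2 (0.028) and CCT4 (0.068) with loess. Leaving out a library gave −0.277 to 0.050 for CCT2 and −0.116 to 0.013 for CCT8.

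The highest density over the lowest was 3.43 in the TRiC inputs, and 3.37 with merged exons, 3.63 without duplicated windows and 3.57 without coding bases under other genes, the last chosen after seeing the data. In the PFD inputs these were 2.63, 3.59, 2.01 and 2.74. The share of CCT4 in the TRiC pulldown rose by 0.12 with the median of the other 7 as reference. Protein lengths from RefSeq were not used here, so that alternative was not run.

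Over all genes, calls ranged from 31 to 4698 in the TRiC pulldown (3444 as reported), 23 to 2434 in the PFD pulldown (34), 3229 to 11084 between inputs (6583) and 0 to 3931 for the interaction (7). The highest of the last 3 came from leaving out PFD pulldown replicate 2, PFD input replicate 2 and PFD pulldown replicate 2.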
